A study of Mus musculus with 48 samples.

Results

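The 4 receptor genes described here, Ccr2, Cx3cr1, Ccr1 and Cxcr4, are the listed monocyte and macrophage chemokine receptors among the 24537 gene rows of the count table, and all 4 were present in it. They were followed through immune cells that had been sorted from colon tumours of mice at day 85 after azoxymethane (AOM), a carcinogen, and dextran sulfate sodium (DSS), which injures the colon lining, and all groups had received both agents. Cells labelled ko, from mice lacking the chemokine CCL17, were compared with cells labelled ctrl in 4 populations gated on Ly6C and MHC class II (MHCII), named Ly6Clo MHCIIhi, Ly6Clo MHCIIlo, Ly6Chi MHCIIhi and Ly6Chi MHCIIlo. Ly6Clo MHCIIhi had 8 ko and 8 ctrl replicates, Ly6Clo MHCIIlo had 4 ko and 4 ctrl, Ly6Chi MHCIIhi had 4 ko and 3 ctrl, and Ly6Chi MHCIIlo had 4 ko and 4 ctrl, which makes 39 samples from 47 of 48 libraries. Strain, sex, age and the kind of ctrl animal are not in the labels, the housing named for the series is not given per sample, and it is not stated whether each replicate is its own animal. The p-values below therefore cover only sample-to-sample spread, which may be technical.

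Chemokine receptors are membrane proteins that couple to inhibitory G proteins and steer cell migration along gradients of their ligands. CCR2 is the receptor through which CCL2 and related chemokines draw Ly6C-high monocytes out of the bone marrow into inflamed tissue, and monocytes that become tissue macrophages lower it. CX3CR1 binds the membrane-anchored chemokine CX3CL1 and is a marker of intestinal macrophages. CCR1 binds CCL3, CCL5 and, in mice, CCL6 and CCL9, and CXCR4 binds CXCL12 and holds cells in the bone marrow.

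In GRCm38, Ccr2 lies on chromosome 9 from 124101950 to 124113557 on the + strand, and Ccr1 lies 139.8 kb before its start, from 123962124 to 123968692 on the - strand. Cx3cr1 is on the same chromosome from 119901616 to 120069879 on the - strand. Cxcr4 is on chromosome 1 from 128588199 to 128592293 on the - strand. For the counting of reads, the Cx3cr1 interval overlaps 9 other genes. Of the 922 words of 31 bases in the last 500 bases of Cx3cr1 transcripts, 49 recur in other genes. For Ccr2, Ccr1 and Cxcr4 the number was 0.

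The promoters of the 2 receptors that differed in opposite directions between populations, and that of Cxcr4, whose promoter was the richest in CpG of the 4, are shown to let their base composition be compared. Each is 250 bases before and 50 bases from the RefSeq transcription start (GRCm38.p6, 300 bases, 5′ to 3′ on the gene's strand), at chr9:124101933-124102232, chr9:120068247-120068546 and chr1:128592250-128592549, with CpG dinucleotides in capitals.
Ccr2: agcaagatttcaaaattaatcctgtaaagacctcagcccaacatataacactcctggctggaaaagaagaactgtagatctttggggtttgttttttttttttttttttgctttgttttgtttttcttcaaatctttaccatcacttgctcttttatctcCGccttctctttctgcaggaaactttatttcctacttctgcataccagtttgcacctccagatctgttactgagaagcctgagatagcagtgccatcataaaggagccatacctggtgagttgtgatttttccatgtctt
Cx3cr1: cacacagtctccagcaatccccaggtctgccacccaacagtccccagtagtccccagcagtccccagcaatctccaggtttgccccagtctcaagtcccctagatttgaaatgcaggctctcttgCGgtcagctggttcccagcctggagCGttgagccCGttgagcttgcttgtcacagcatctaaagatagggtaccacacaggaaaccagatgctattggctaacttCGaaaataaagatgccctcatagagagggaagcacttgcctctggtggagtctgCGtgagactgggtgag
Cxcr4: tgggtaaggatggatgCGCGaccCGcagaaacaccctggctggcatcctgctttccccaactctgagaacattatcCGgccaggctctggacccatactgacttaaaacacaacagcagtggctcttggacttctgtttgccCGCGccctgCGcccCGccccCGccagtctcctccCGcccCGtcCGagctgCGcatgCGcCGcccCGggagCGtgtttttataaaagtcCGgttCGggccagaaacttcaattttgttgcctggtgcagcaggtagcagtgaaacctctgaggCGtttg
The Ccr2 window held 1 CpG, the Cx3cr1 window 5 and the Cxcr4 window 20, and the Ccr1 window, not shown, held 1, where the median of 32851 promoters was 7. The letters TATAAA, searched on both strands, occurred in 13.62% of all promoters of that length, and among the 4 receptors they were found only in Cxcr4, as 2 overlapping matches on opposite strands that begin 32 bases before the start. The letters GGGCGG, found in 35.66% of promoters, occurred 3 times in Cxcr4, and the letters GAGGAA, found in 28.28%, occurred 1 time in Ccr1. No match says only that those letters are not in this window.

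Levels are counts per 1000000 counts of the library (CPM), scaled by the trimmed mean of M values (TMM), and replicate totals ran between 34362 and 891461 counts. The library left out had 8409 counts, under the limit of 28006, and the thinnest one kept had 34362. The sort was checked on its own transcripts: Ly6c2 averaged 26.3, 41.4, 497 and 1226 CPM, and Cd74, the invariant chain of MHCII, 13864, 2471, 9660 and 1858 CPM, in Ly6Clo MHCIIhi, Ly6Clo MHCIIlo, Ly6Chi MHCIIhi and Ly6Chi MHCIIlo. Genes of most MHCII chains are not analysed here. The summed level of 9 macrophage markers (C1qa and Mrc1 among them) was 40131, 31027, 10182 and 5258 CPM, and that of 9 monocyte markers 1460, 1884, 5350 and 8964 CPM, in the same order. Transcripts of 10 neutrophil markers summed to 1289, 13329, 8246 and 11800 CPM, so this marker sum was higher in both MHCIIlo gates. Its member S100a8 averaged 4262 CPM in Ly6Clo MHCIIlo and 4794 CPM in Ly6Chi MHCIIlo, and which cells the sum came from was not tested. The Ly6Chi MHCIIhi mean of the sum was carried by 1 library and its median was 1347 CPM. Ly6Chi MHCIIhi ctrl stands apart: its replicate 1 had 22.9% of counts from haemoglobin genes, against at most 1.43% in any other library, and a neutrophil sum of 48742 CPM, and its replicates 1 and 3 held 78264 and 34362 counts. Differences that rest on it are also given without libraries under 100000 counts, of which there were 4 among the replicates used, the others being Ly6Clo MHCIIhi ko 6 and ctrl 2. Without them Ly6Chi MHCIIhi keeps 5 samples, its 4 ko replicates and only ctrl replicate 4, so its level then rests mostly on ko.

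Ccr2 was the receptor with the widest range between populations, and it was lowest where Ly6C was low. Its mean was 89.0 ± 28.4 CPM in Ly6Clo MHCIIhi (SD, n = 16), 57.2 ± 26.9 in Ly6Clo MHCIIlo (n = 8), 169 ± 105 in Ly6Chi MHCIIhi (n = 7) and 301 ± 40.1 in Ly6Chi MHCIIlo (n = 8). The lowest, median and highest replicates were 39.9, 86.7 and 140 CPM in Ly6Clo MHCIIhi, 24.7, 53.6 and 98.3 in Ly6Clo MHCIIlo, 0, 196 and 314 in Ly6Chi MHCIIhi, and 253, 302 and 370 in Ly6Chi MHCIIlo. Without libraries under 100000 counts the Ly6Chi MHCIIhi mean was 224 ± 53.7 CPM (n = 5). No replicate of either Ly6Clo population reached the lowest of Ly6Chi MHCIIlo, while Ly6Chi MHCIIhi overlapped all of them, its sample at 0 being ctrl replicate 1, where a count of 0 of 78264 allows up to 39.8 CPM. In these bulk samples, fewer cells with the transcript and less of it per cell cannot be told apart.

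Each pair of populations was tested over all genes by edgeR (quasi-likelihood F test), genotype in the model and Benjamini-Hochberg adjustment, and an adjusted p under 0.05 counted as past the threshold. Ccr2 fell by 2.24 on the log2 scale (SE 0.20), 4.73-fold lower, in Ly6Clo MHCIIlo against Ly6Chi MHCIIlo (edgeR adjusted p = 2.68e-09), with 8 of 8 samples below the Ly6Chi mean. In Ly6Clo MHCIIhi against Ly6Chi MHCIIlo it fell by 1.74 (SE 0.14), 3.35-fold lower (edgeR adjusted p = 2.05e-11), in 16 of 16 samples. Against Ly6Chi MHCIIhi the drop was smaller, with a log2 fold change of -1.08 (SE 0.24, edgeR adjusted p = 0.00184) for Ly6Clo MHCIIhi and -1.51 (SE 0.31, edgeR adjusted p = 0.00121) for Ly6Clo MHCIIlo. Without libraries under 100000 counts these were -1.31 (edgeR adjusted p = 5.62e-05) and -1.74 (edgeR adjusted p = 1.61e-05). Among samples labelled ctrl alone, where the Ly6Chi MHCIIhi group is 3 samples, they were -0.48 and -1.21 and did not pass (edgeR adjusted p = 0.692 and 0.358). With replicate numbers within genotype as a block in the fit, the Ly6Clo MHCIIhi difference was -0.88 and did not pass (edgeR adjusted p = 0.153). The Ly6Clo MHCIIlo difference still passed with that block. Between the 2 Ly6Clo populations the difference of 0.53 (SE 0.23) missed the threshold (edgeR adjusted p = 0.0759, 95% interval 0.07 to 1.00), and without Ly6Clo MHCIIlo ctrl replicate 1, the highest of its group, it was 0.71 with an adjusted p of 0.0254, and without Ly6Clo MHCIIlo ko replicate 2 it was 0.66 with 0.0458. Between the 2 Ly6Chi populations it was -0.67 (SE 0.26, edgeR adjusted p = 0.202, 95% interval -1.21 to -0.12), and DESeq2 put it past the threshold at 0.0439, while without libraries under 100000 counts it was -0.39 (edgeR adjusted p = 0.225). From low to high the order was therefore Ly6Clo MHCIIlo, Ly6Clo MHCIIhi, Ly6Chi MHCIIhi and Ly6Chi MHCIIlo, in which the first pair and the last pair of neighbours were not separated by the edgeR test.

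**Figure D1:**
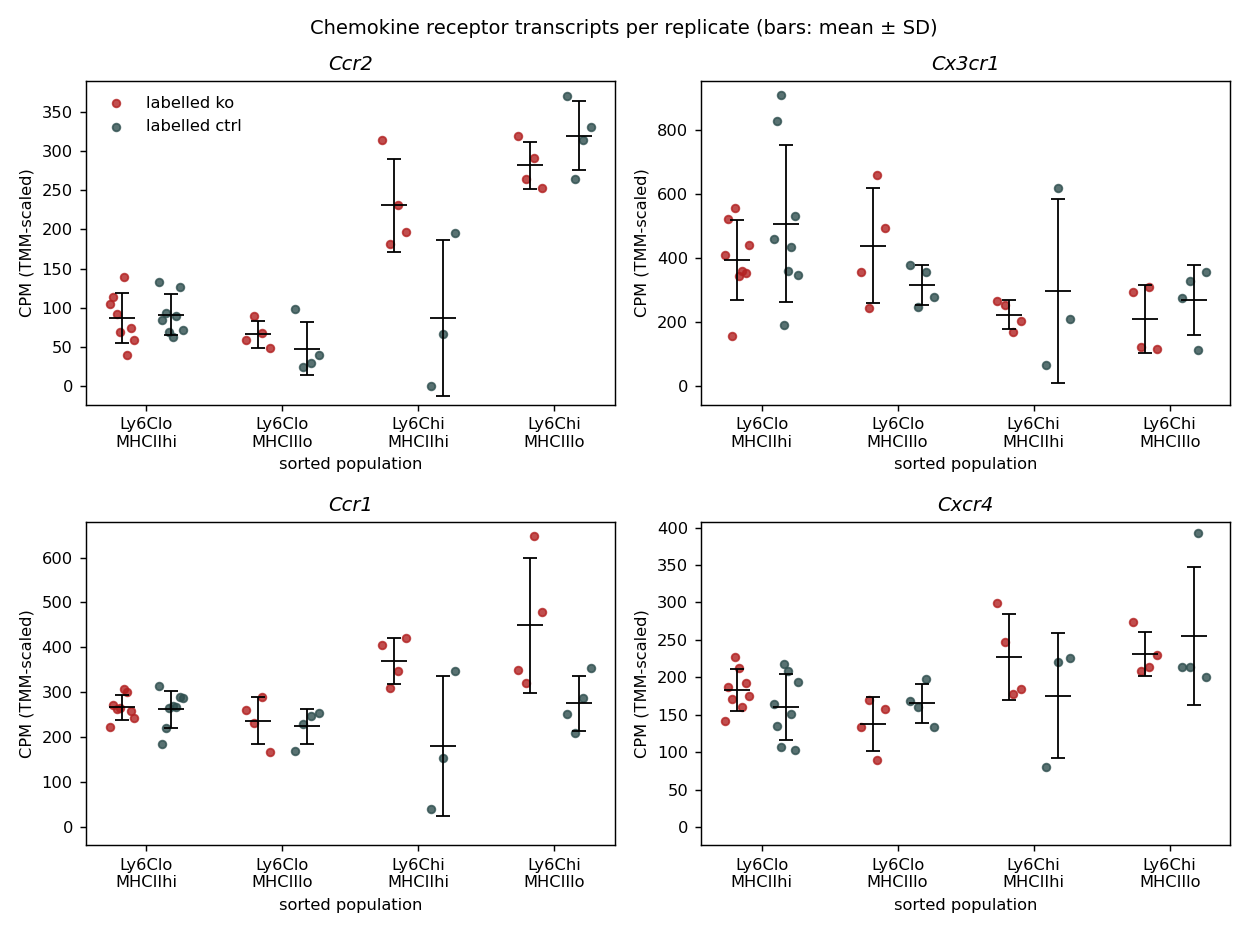
CPM (TMM-scaled, vertical axis) of each receptor in every replicate of the 4 sorted populations (horizontal axis), labelled ko in red left of labelled ctrl in dark grey, with bars for mean ± SD. Ccr2 separates Ly6Clo cells, at most 140 CPM, from Ly6Chi MHCIIlo, at least 253 CPM, and the ctrl points of Ly6Chi MHCIIhi are spread for all 4 receptors.

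Cx3cr1 went the other way and was higher in Ly6Clo cells than in Ly6Chi MHCIIlo. It averaged 450 ± 196 CPM in Ly6Clo MHCIIhi, 377 ± 140 in Ly6Clo MHCIIlo, 255 ± 173 in Ly6Chi MHCIIhi and 239 ± 104 in Ly6Chi MHCIIlo (SD, n = 16, 8, 7 and 8). The lowest, median and highest replicates were 156, 421 and 906 CPM in Ly6Clo MHCIIhi, 245, 356 and 658 in Ly6Clo MHCIIlo, 66.3, 209 and 618 in Ly6Chi MHCIIhi, and 112.5, 284 and 358 in Ly6Chi MHCIIlo. All groups overlapped. Cx3cr1 was 1.85-fold higher in Ly6Clo MHCIIhi than in Ly6Chi MHCIIlo (log2 0.89, SE 0.25, edgeR adjusted p = 0.00555, 14 of 16 samples above the Ly6Chi mean). It was 1.75-fold higher in Ly6Clo MHCIIlo than in Ly6Chi MHCIIlo (log2 0.81, SE 0.25, edgeR adjusted p = 0.0128, 8 of 8 samples), a call that was at an adjusted p of 0.0504 when all 8 groups shared 1 fit. That Ly6Clo MHCIIlo difference was 0.40 with ctrl alone and 1.25 with ko alone (edgeR adjusted p = 0.359 and 0.0109). The Ly6Clo MHCIIhi difference was 0.90 with either genotype alone (edgeR adjusted p = 0.084 for ctrl and 0.0276 for ko). Over Ly6Chi MHCIIhi the log2 fold changes of 0.77 (SE 0.29) in Ly6Clo MHCIIhi and 0.72 (SE 0.29) in Ly6Clo MHCIIlo missed the threshold (edgeR adjusted p = 0.0689 and 0.0727). Without libraries under 100000 counts they were 0.84 and 0.98 and passed (edgeR adjusted p = 0.0387 and 0.00102), and leaving out only Ly6Chi MHCIIhi ctrl replicate 3, at 618 CPM from 28 counts, gave 1.01 and 1.05 (edgeR adjusted p = 0.0143 and 0.00145). Without Ly6Clo MHCIIhi ko replicate 3 the Ly6Clo MHCIIhi difference was 0.84 and passed (edgeR adjusted p = 0.0345). Among samples labelled ctrl alone, where Ly6Chi MHCIIhi is 3 samples, the differences over Ly6Chi MHCIIhi were 0.65 and 0.10. They did not pass (edgeR adjusted p = 0.657 and 0.957). With ko alone they were 0.79 and 1.13 and passed (edgeR adjusted p = 0.0297 and 0.00367). Neither pair that shares a Ly6C level differed past the threshold, with 0.10 for Ly6Clo MHCIIhi over Ly6Clo MHCIIlo (95% interval -0.39 to 0.59) and 0.17 for Ly6Chi MHCIIhi over Ly6Chi MHCIIlo (95% interval -0.50 to 0.85), which was 0.00068 without libraries under 100000 counts.

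Cxcr4 and Ccr1 were lower in Ly6Clo cells than in Ly6Chi MHCIIlo, by less than Ccr2. Cxcr4 averaged 172 ± 37.5 CPM in Ly6Clo MHCIIhi, 151 ± 32.5 in Ly6Clo MHCIIlo, 205 ± 68.5 in Ly6Chi MHCIIhi and 243 ± 64.3 in Ly6Chi MHCIIlo, with medians of 173, 159, 221 and 214. Its highest Ly6Clo MHCIIlo replicate, at 198 CPM, lay just under the lowest of Ly6Chi MHCIIlo, at 200.4 CPM, so these groups did not overlap. The log2 fold change was -0.54 (SE 0.16, edgeR adjusted p = 0.00985, 8 of 8 samples) there and -0.52 (SE 0.14, edgeR adjusted p = 0.00286, 16 of 16 samples) for Ly6Clo MHCIIhi over Ly6Chi MHCIIlo. Over Ly6Chi MHCIIhi it was -0.33 (SE 0.15) in Ly6Clo MHCIIhi and -0.42 (SE 0.18) in Ly6Clo MHCIIlo, neither past the threshold (edgeR adjusted p = 0.14 and 0.0903), and for Ly6Clo MHCIIlo it was -0.52 without Ly6Chi MHCIIhi ctrl replicate 1 (edgeR adjusted p = 0.0241). Without libraries under 100000 counts it was -0.38 in Ly6Clo MHCIIhi (edgeR adjusted p = 0.109) and -0.52 in Ly6Clo MHCIIlo, which passed (edgeR adjusted p = 0.0319).

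Ccr1 averaged 264 ± 34.0 CPM in Ly6Clo MHCIIhi, 231 ± 43.4 in Ly6Clo MHCIIlo, 289 ± 140 in Ly6Chi MHCIIhi and 362 ± 141 in Ly6Chi MHCIIlo. Its log2 fold change over Ly6Chi MHCIIlo was -0.45 (SE 0.13, edgeR adjusted p = 0.00555, 16 of 16 samples) in Ly6Clo MHCIIhi and -0.47 (SE 0.18, edgeR adjusted p = 0.0371, 8 of 8 samples) in Ly6Clo MHCIIlo. The Ly6Clo MHCIIlo call was lost in 8 of 16 fits that left out 1 replicate, those without Ly6Clo MHCIIlo ctrl 1 or ko 1, 2 or 4 and those without Ly6Chi MHCIIlo ctrl 3 or 4 or ko 3 or 4, at adjusted p of 0.0536 to 0.114. The differences were larger among samples labelled ko alone, at -0.78 in Ly6Clo MHCIIhi and -0.74 in Ly6Clo MHCIIlo (edgeR adjusted p = 0.00132 and 0.0305), than among samples labelled ctrl alone, at -0.05 and -0.14 (edgeR adjusted p = 0.853 and 0.737). Whether the genotypes differ in these pairs was not tested on its own. The interaction given further on is taken over all populations together, and it missed the threshold. Over Ly6Chi MHCIIhi the differences of -0.25 and -0.27 missed it too (edgeR adjusted p = 0.305 and 0.384). Among samples labelled ctrl alone they had the opposite sign, at 0.21 and 0.11 (edgeR adjusted p = 0.83 and 0.938). With ko alone they were -0.51 and -0.48 (edgeR adjusted p = 0.00891 and 0.0798). Without Ly6Chi MHCIIhi ctrl replicate 1 they were -0.39 and -0.44 and passed (edgeR adjusted p = 0.0142 and 0.0473). Without libraries under 100000 counts they were -0.51 and -0.52 and passed as well (edgeR adjusted p = 0.000584 and 0.0189).

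Many other genes passed in the same contrasts. All 4 receptors passed for Ly6Clo MHCIIhi over Ly6Chi MHCIIlo, where 43.8% of genes did, and for Ly6Clo MHCIIlo over Ly6Chi MHCIIlo, where 39% did. Groups without overlap were found for 4.71% of genes in the first contrast, Ccr2 among them, and for 11.6% in the second, Ccr2 and Cxcr4 among them. Only Ccr2 passed for Ly6Clo MHCIIhi over Ly6Chi MHCIIhi (background 17.4%) and for Ly6Clo MHCIIlo over Ly6Chi MHCIIhi (background 25.4%), but without libraries under 100000 counts 3 and 4 receptors did, where 16.5% and 30.9% of genes passed. In that refit only replicate 4 of Ly6Chi MHCIIhi is ctrl. With samples labelled ctrl alone no receptor passed in these pairs, where 1.34% and 0.947% of genes did. None of the 4 passed edgeR for Ly6Clo MHCIIhi over Ly6Clo MHCIIlo (background 27.6%) or for Ly6Chi MHCIIhi over Ly6Chi MHCIIlo (background 3.23%), where Ccr2 had an unadjusted p under 0.05 in both and passed DESeq2 in the second. The comparisons share samples and are not independent of each other. With samples labelled ctrl alone, 1 receptor (Ccr2) passed for Ly6Clo MHCIIlo over Ly6Chi MHCIIlo and 2 (Ccr2 and Cxcr4) for Ly6Clo MHCIIhi over Ly6Chi MHCIIlo, where 21.3% and 26.4% of genes did. With samples labelled ko alone it was Ccr2, Cx3cr1 and Ccr1 in both, where 25.2% and 29.2% of genes passed.

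**Figure D2:**
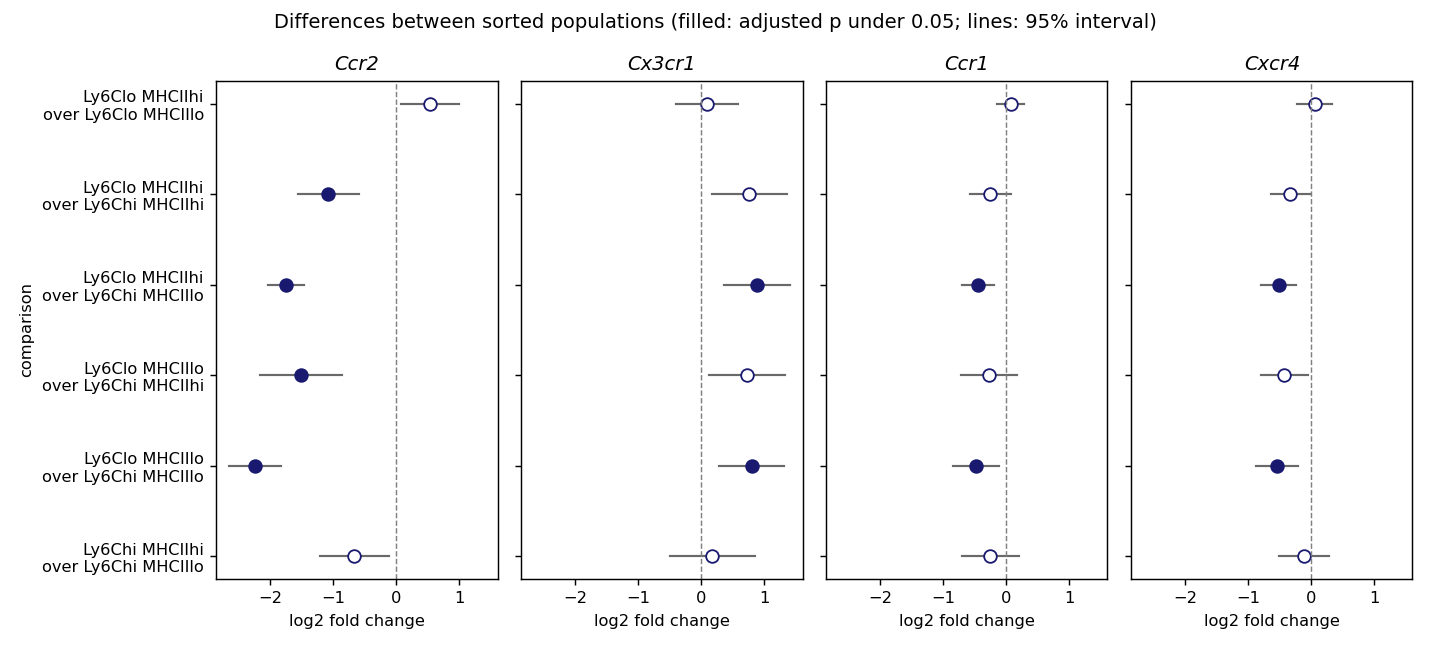
Log2 fold change (horizontal axis) of each receptor in the 6 pairs of sorted populations (vertical axis), with 95% intervals and filled points where the adjusted p was under 0.05. Ccr2 is filled in all 4 pairs of Ly6Clo over Ly6Chi, and Cx3cr1, Ccr1 and Cxcr4 in the 2 pairs over Ly6Chi MHCIIlo.

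The balance of Cx3cr1 to Ccr2 within each sample does not depend on library scaling, and it is given as a description. On the log2 scale of (count + 1), the median ratio of Cx3cr1 to Ccr2 was 2.23 in Ly6Clo MHCIIhi, 2.85 in Ly6Clo MHCIIlo, 0.09 in Ly6Chi MHCIIhi and -0.27 in Ly6Chi MHCIIlo. Cx3cr1 exceeded Ccr2 in 16 of 16 and 8 of 8 samples of the Ly6Clo populations, in 5 of 7 of Ly6Chi MHCIIhi and in 3 of 8 of Ly6Chi MHCIIlo. Summed over replicates there were 4.62 Cx3cr1 counts per Ccr2 count in Ly6Clo MHCIIhi, 6.65 in Ly6Clo MHCIIlo, 1.13 in Ly6Chi MHCIIhi and 0.778 in Ly6Chi MHCIIlo. In Ly6Clo MHCIIhi that sum was 4.49 in ko and 4.75 in ctrl samples, and in Ly6Clo MHCIIlo 6.65 in ko and 6.63 in ctrl samples. In Ly6Chi MHCIIhi it was 1.00 in ko and 1.69 in ctrl samples, and in Ly6Chi MHCIIlo 0.747 in ko and 0.808 in ctrl samples. The Ly6Chi MHCIIhi ctrl counts of Cx3cr1 and Ccr2 were 5 and 0 in replicate 1, 28 and 3 in replicate 3, and 48 and 45 in replicate 4. Replicates 1 and 3 are libraries under 100000 counts, and both are among the 5 samples of that population where Cx3cr1 exceeded Ccr2.

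**Figure D3:**
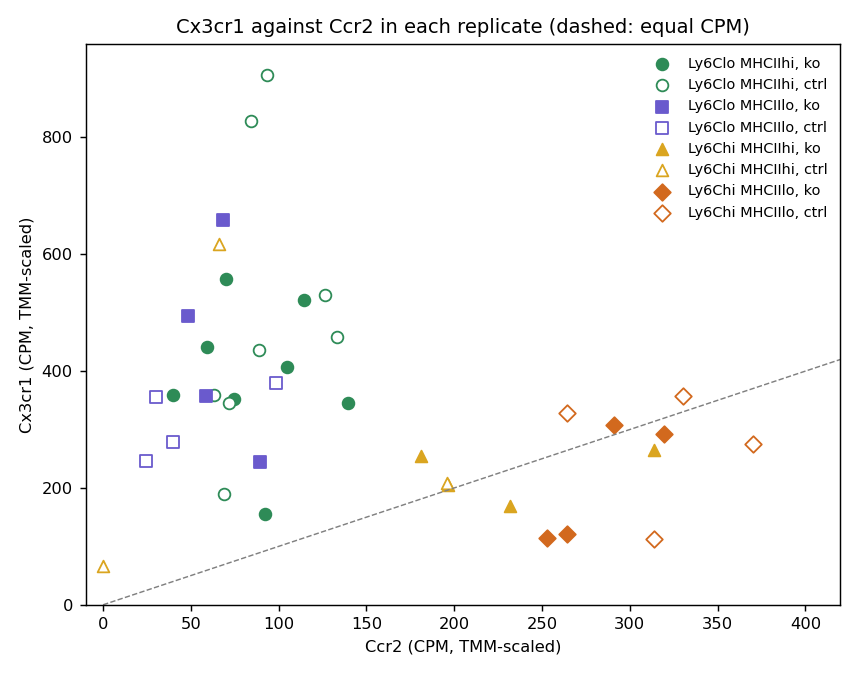
Cx3cr1 against Ccr2 (both CPM, TMM-scaled) in each of the 39 samples, filled for labelled ko and open for labelled ctrl, with a dashed line at equal levels. All Ly6Clo samples lie above the line, and Ly6Chi MHCIIlo samples lie on both sides of it.

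The study's own question was what loss of CCL17 does to these cells. No receptor differed past the threshold between labelled ko and labelled ctrl in any population, in 0 of 16 edgeR tests and 0 of 16 with DESeq2, with 1 unadjusted p under 0.05. Over all genes, edgeR called 0% in Ly6Clo MHCIIhi, 0.0314% in Ly6Clo MHCIIlo, 0% in Ly6Chi MHCIIhi and 0.0756% in Ly6Chi MHCIIlo, against 296, 136, 245 and 444 genes with an unadjusted p under 0.05. DESeq2 called 2, 1, 0 and 17 genes.

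Ccr1 had the smallest p, in Ly6Chi MHCIIlo. It was at 349, 320, 649 and 479 CPM in ko samples, against 251, 209, 286 and 354 CPM in ctrl samples. All 4 ko samples were above the ctrl mean of 275 ± 61.1 CPM, but the groups overlapped, since the highest ctrl sample exceeded 2 ko samples. The log2 fold change was 0.67 (SE 0.23, 95% interval 0.18 to 1.16, unadjusted p = 0.0106, edgeR adjusted p = 0.285). In Ly6Chi MHCIIhi Ccr1 was at 404, 310, 347 and 421 CPM in ko samples, against 39.8, 155 and 348 CPM in ctrl replicates 1, 3 and 4. The low ctrl values are the 2 libraries under 100000 counts, and the difference of 0.67 (SE 0.38, 95% interval -0.16 to 1.50) did not pass (edgeR adjusted p = 0.709). It was 0.11 without those 2 libraries, and over fits that left out 1 replicate it ran between 0.29 without ctrl replicate 1 and 1.62 without ctrl replicate 4. In Ly6Clo MHCIIhi ko samples averaged 266 ± 27.9 CPM and ctrl samples 263 ± 41.2 CPM (SD, n = 8 each), while the fitted log2 difference, opposite in sign to that of the means, was -0.04 with an interval of -0.25 to 0.18, and in Ly6Clo MHCIIlo ko samples averaged 237 ± 52.8 CPM and ctrl samples 224 ± 38.6 CPM (SD, n = 4 each). The interaction of population and genotype for Ccr1 had an unadjusted p of 0.0307 and an edgeR adjusted p of 0.70, where 0.0663% of genes passed, and none of the other receptors came closer. Without Ly6Chi MHCIIhi ctrl replicate 4, which leaves that group with its 2 thin libraries, the adjusted p of Ccr1 was 0.0201.

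Ccr2 in Ly6Chi MHCIIlo was at 319, 264, 291 and 253 CPM in ko samples, against 370, 264, 314 and 330 CPM in ctrl samples. The groups overlapped, and the log2 difference was -0.21 (95% interval -0.58 to 0.15, edgeR adjusted p = 0.659). In Ly6Chi MHCIIhi it was at 314, 181, 232 and 196 CPM in ko samples, against 0, 66.2 and 196 CPM in ctrl replicates 1, 3 and 4. Again the ctrl spread covers the comparison, with a log2 difference of 0.86 and an interval of -0.22 to 1.93 (edgeR adjusted p = 0.709). It was 0.25 without libraries under 100000 counts, and over fits that left out 1 replicate it ran between 0.44 without ctrl replicate 1 and 2.66 without ctrl replicate 4, none past the threshold. In Ly6Clo MHCIIlo it was at 58.6, 89.6, 68.4 and 48.7 CPM in ko samples, against 98.3, 24.7, 29.9 and 39.7 CPM in ctrl samples, which rest on 4 to 21 counts each. The log2 difference of 0.45 had an interval of -0.39 to 1.28. In Ly6Clo MHCIIhi, with the most replicates, ko samples averaged 86.8 ± 32.3 CPM and ctrl samples 91.3 ± 26.0 CPM, and the log2 difference was -0.04 with an interval of -0.46 to 0.38.

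Cx3cr1 in Ly6Clo MHCIIhi averaged 393 ± 124 CPM in ko samples and 507 ± 245 CPM in ctrl samples, a log2 difference of -0.35 with an interval of -0.89 to 0.20 (edgeR adjusted p = 0.974). In Ly6Clo MHCIIlo it was at 357, 245, 658 and 495 CPM in ko samples, against 379, 247, 355 and 278 CPM in ctrl samples, with a log2 difference of 0.48 (95% interval -0.05 to 1.02). Only 2 ko samples exceeded all of the ctrl samples there. In Ly6Chi MHCIIhi it was at 265, 255, 170 and 204 CPM in ko samples, against 66.3, 618 and 209 CPM in ctrl replicates 1, 3 and 4. The difference of -0.54 there was 0.13 without libraries under 100000 counts and so changed sign with them. In Ly6Chi MHCIIlo it was at 293, 121, 309 and 115 CPM in ko samples, against 275, 328, 112.5 and 358 CPM in ctrl samples, with a log2 difference of -0.38 (95% interval -1.14 to 0.37). Both genotypes held low and high samples in that population.

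Cxcr4 in Ly6Clo MHCIIhi averaged 183 ± 27.6 CPM in ko samples and 160 ± 44.1 CPM in ctrl samples, with a log2 difference of 0.19 (95% interval -0.12 to 0.49). In Ly6Clo MHCIIlo it was at 133, 170, 89.5 and 158 CPM in ko samples, against 169, 160, 198 and 134 CPM in ctrl samples. The difference was -0.27 with an interval of -0.74 to 0.21. In Ly6Chi MHCIIhi it was at 299, 247, 178 and 184 CPM in ko samples, against 79.6, 221 and 226 CPM in ctrl replicates 1, 3 and 4, a difference of 0.11 (95% interval -0.57 to 0.78) that was 0.038 without libraries under 100000 counts. In Ly6Chi MHCIIlo it was at 274, 208, 214 and 229 CPM in ko samples, against 214, 214, 392 and 200.4 CPM in ctrl samples, a difference of -0.19 (95% interval -0.68 to 0.31). There the ctrl sample at 392 CPM was the highest Cxcr4 value of all samples.

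**Figure D4:**
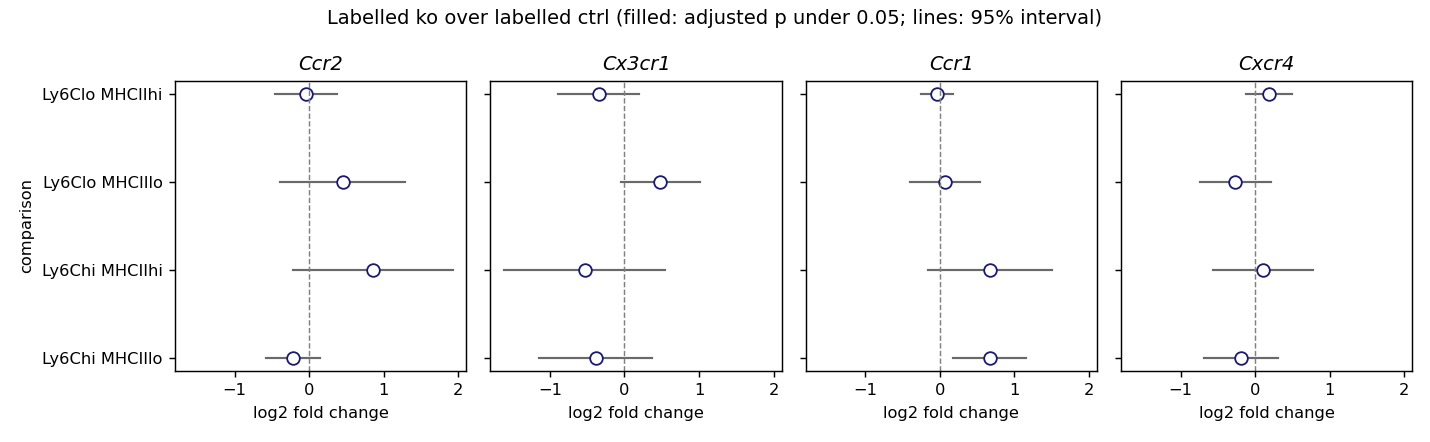
Log2 fold change of labelled ko over labelled ctrl (horizontal axis) for each receptor in the 4 populations (vertical axis), with 95% intervals. All 16 points are open, that is, not past an adjusted p of 0.05, and the Ccr1 interval in Ly6Chi MHCIIlo is the 1 that leaves out 0.

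In Ly6Clo MHCIIlo, Ly6Chi MHCIIhi and Ly6Chi MHCIIlo every ko library carried a G/C-rich sample barcode and every ctrl library an A/T-rich one, and there the 2 cannot be told apart. Within 5 Ly6Clo MHCIIhi replicates that had 1 library of each class, the G/C-rich library differed from the A/T-rich one by -0.29 (SE 0.21) in log2 for Ccr2, -0.25 (SE 0.12) for Cx3cr1, -0.01 (SE 0.12) for Ccr1 and -0.06 (SE 0.15) for Cxcr4. None passed (edgeR adjusted p = 0.755, 0.5, 0.998 and 0.97), Cx3cr1 had an unadjusted p of 0.0408, and 1.54% of all genes passed. The G/C-rich library was the first of the pair in ctrl replicates 5 to 8 and the second in ko replicate 4. Barcode class therefore goes largely with library order there, and most of these replicates are ctrl. Within Ly6Clo MHCIIhi replicates 1 to 4 and 5 to 8, taken apart and with library 1 only, two-sided exact permutation tests of ko against ctrl gave p between 0.314 and 1 over 8 tests, where the smallest p that 4 against 4 allows is 0.0286.

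The chemokines that these receptors bind were measured in the same cells. Of 12 ligand genes, 10 were tested in every population pair. Cx3cl1 and Cxcl12, whose chemokines bind CX3CR1 and CXCR4, had 105 and 5 counts over all samples. Mif, also on the list of ligands, had 9948 counts. It averaged 827 ± 122 CPM in Ly6Clo MHCIIhi, 977 ± 165 in Ly6Clo MHCIIlo and 357 ± 85.4 in Ly6Chi MHCIIlo. The ligands of CCR2 were split between populations. Ccl2 was lower in Ly6Clo MHCIIhi, at 266 ± 98.6 CPM, than in Ly6Chi MHCIIlo, at 490.3 ± 141 CPM (log2 -0.86, SE 0.19, edgeR adjusted p = 0.000391), so it went the same way as its receptor. Ccl12 and Ccl7, which also bind CCR2 in mice, went the opposite way, with Ccl12 at 347 ± 177 CPM in Ly6Clo MHCIIhi and 21.9 ± 17.4 CPM in Ly6Chi MHCIIlo (log2 3.97, SE 0.36) and Ccl7 at 147 ± 58.6 CPM and 51.9 ± 36.2 CPM in these populations (log2 1.54, SE 0.30). Ccl8, whose human counterpart binds CCR2, was at 699 ± 330 CPM in Ly6Clo MHCIIhi and 29.2 ± 18.4 CPM in Ly6Chi MHCIIlo (log2 4.53, SE 0.33). The CCR1 ligands Ccl6 and Ccl9 were lower in Ly6Clo MHCIIhi than in Ly6Chi MHCIIlo, by -1.04 (SE 0.10) and -1.07 (SE 0.16) in log2, as Ccr1 was. The CCR1 ligands Ccl3 and Ccl5 did not share this. Ccl3 averaged 1541 ± 1410 CPM in Ly6Clo MHCIIhi and 1428 ± 310 CPM in Ly6Chi MHCIIlo, and Ccl5 1387 ± 3046 and 381 ± 515 CPM. In that pair 4 ligands rose and 3 fell of 10 tested, with a median log2 difference of 0.65 against 0.00 over all genes. In Ly6Clo MHCIIlo over Ly6Chi MHCIIlo 3 rose, Mif, Ccl12 and Ccl8, and 2 fell, Ccl2 and Ccl9, with a median of -0.05 against 0.01 over all genes. None of the ligands tested passed between ko and ctrl by edgeR in any population.

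**Figure D5:**
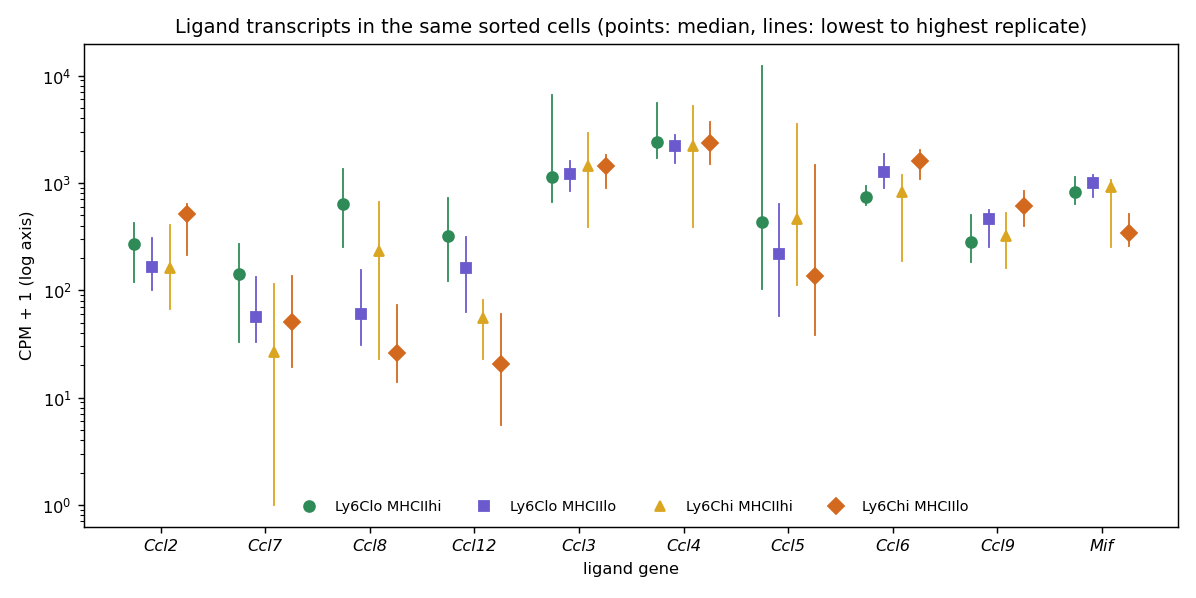
CPM + 1 (log axis) of the 10 tested ligand genes in the 4 sorted populations, with the median as a point and the lowest to highest replicate as a line. Ccl8 and Ccl12 are highest in Ly6Clo MHCIIhi, with medians of 633 and 320 CPM, and Ccl2 is highest in Ly6Chi MHCIIlo, with a median of 514 CPM.

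Ccr7, which guides dendritic cells to lymph nodes, was at 191 ± 77.9 CPM in Ly6Clo MHCIIhi and 18.3 ± 12.0 CPM in Ly6Chi MHCIIlo (log2 3.39, SE 0.35), and the summed level of 8 other dendritic cell markers was 171 CPM and 36.5 CPM in these populations. Cxcr2, a neutrophil receptor, was at 1.52 ± 1.67 CPM in Ly6Clo MHCIIhi and 72.0 ± 56.1 CPM in Ly6Clo MHCIIlo, where 9 other neutrophil markers summed to 1288 and 13258 CPM. The part of neutrophil RNA in the levels of Ccr1 and Cxcr4, which neutrophils also transcribe, was not tested.

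Of 35 listed genes that carry or end the receptor signal, 31 were in the table, and the share of them called was near that of all genes. In Ly6Clo MHCIIhi over Ly6Chi MHCIIlo 6 of 26 tested rose and 7 fell, where 43.8% of all genes were called, with a median log2 difference of -0.10 against 0.00 over all genes, and in Ly6Clo MHCIIlo over Ly6Chi MHCIIlo 7 of 24 rose and 1 fell, where 39% of all genes were called. Rgs1, which speeds the shut-off of inhibitory G proteins, was at 648 ± 120 CPM in Ly6Clo MHCIIhi, 629 ± 138 CPM in Ly6Clo MHCIIlo and 89.7 ± 23.9 CPM in Ly6Chi MHCIIlo (log2 2.84 and 2.94, SE 0.14 and 0.17). Rgs2 and Rgs10, of the same family, also rose in both, Rgs2 by 1.14 (SE 0.15) and Rgs10 by 1.23 (SE 0.17) in Ly6Clo MHCIIhi. Gng2, a G protein gamma subunit, rose by 0.71 (SE 0.13) there, and Rac1, a GTPase that moves the cytoskeleton, fell by 0.64 (SE 0.12) in Ly6Clo MHCIIhi and by 0.70 (SE 0.14) in Ly6Clo MHCIIlo.

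Likeness was taken over the 8 means of population and genotype, as Pearson r of log2(CPM + 1) with 6023 genes, a description in which all genes share libraries and depth. Closest to Ccr2 were Pfkfb3 (r = 0.994), Emb (0.988), Irf2bp2 (0.981), Mmp19 (0.978) and Capn2 (0.976). Closest to Cx3cr1 were Glul (0.958), Fuca1 (0.957), Gsg1 (0.956), Gng2 (0.95) and Adprhl2 (0.941). Closest to Ccr1 were Gorasp2 (0.99), P4hb (0.989), Psma4 (0.985), Tmem259 (0.983) and Chmp2a (0.981), and closest to Cxcr4 were Rps10-ps1 (0.991), St3gal4 (0.971), Fas (0.966), Cript (0.961) and Rap1b (0.949). Among the 4 receptors, Ccr2 was at 0.867 with Ccr1, at 0.83 with Cxcr4 and at -0.30 with Cx3cr1. The Ly6Chi MHCIIhi ctrl mean among the 8 rests on 3 samples, with Ccr2 at 0, 66.2 and 196 CPM. Ccr1 was at 39.8, 155 and 348 CPM in them. On the log2 scale the sample at 0 weighs heavily in the Ccr2 mean. Replicates 1 and 3 of that group are libraries under 100000 counts, and likeness was not computed without them.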

How the data were processed

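The authors deposited raw counts, a whole number for each gene symbol in each library, from bulk 3′ sequencing of poly(A) RNA, per the labels' protocols. Per the submitters' processing notes, the genome build was GRCm38 and the tools included DESeq2 1.18.1 and R 3.4.4. Aligner, counter and use of molecular identifiers are not given in the sources, so floors cover counting error only. All 48 libraries were matched by barcode. A row naming no gene (127 counts, 0.000967%) was left out, libraries of a replicate were added, and 1 library under 0.1 of the median total was left out. Genes passed filterByExpr (minimum count 10, minimum total 15). TMM and the quasi-likelihood F test of edgeR 4.0.16 (R 4.3.3) with Benjamini-Hochberg adjustment over all genes gave every fold and adjusted p unless another tool is named. A floor is 3 counts. Members and lists were chosen with earlier results of these data known.

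Other genes are named by rule, at most 4 per direction, list and comparison, past the threshold and at 20 CPM or more in the higher group, and the 5 most alike per receptor. Ccl3 and Ccl5 are named outside that rule, beside the other CCR1 ligands. Fits with replicate numbers as a block, DESeq2 1.42.0, other filters, each genotype alone, thin libraries left out and each replicate left out were tried. On simulated counts with 2-fold changes, 48% of 100 changed genes were recovered for Ly6Clo MHCIIlo over Ly6Chi MHCIIlo, 52% for ko over ctrl in Ly6Chi MHCIIlo and 75% for ko over ctrl in Ly6Clo MHCIIhi. For the interaction, with the change placed in Ly6Chi MHCIIlo ko alone, 0% were recovered at 2-fold and 27% at 4-fold. The simulated spread was common to all genes and was taken over the samples without regard to group. For the population pair and the interaction it therefore includes differences between populations, and recovery there may be understated.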

Additional observations from a re-analysis of the deposited data

Results flagged for a closer look

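In Ly6Chi MHCIIlo ctrl replicate 3, Cxcr4 was at 392 CPM, far above the other 3 samples of its group (200.4 to 214 CPM). It was the 1 such sample in 28 groups tested, where chance gives about 1 in 20. Without it, Cxcr4 differed between ko and ctrl there by 0.12 in log2, in place of -0.19.

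For Ccr2, every ko sample was below the ctrl mean in Ly6Chi MHCIIlo (log2 fold change -0.21) and above it in Ly6Chi MHCIIhi (0.86) and in Ly6Clo MHCIIlo (0.45). The difference between single pairs of populations was not tested. The interaction over all 4 populations had an edgeR adjusted p of 0.841, and the ctrl mean of Ly6Chi MHCIIhi rests on 48 counts in 3 samples.

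The library left out for its depth, Ly6Chi MHCIIhi ctrl replicate 2, held 13 Cx3cr1 counts of 8409, above the 3 counts that a count of 0 allows, with 2 counts of Ccr2 and 3 each of Ccr1 and Cxcr4.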

How the results depend on the processing

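Calls of Ccr2 for Ly6Clo over Ly6Chi MHCIIlo kept their direction and passed under every alternative run. Replicate totals of 34362 to 891461 counts limit the low groups most. The causes of the changes below were not tested, except that each genotype alone has fewer samples. Leaving out libraries under 100000 counts and fitting ko alone were chosen after seeing the data.

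Receptors past the threshold, for Ly6Chi MHCIIhi over Ly6Chi MHCIIlo (0), were 1 with DESeq2, no count filter or all 8 groups in 1 fit. The number was also 1 with all 8 groups and barcode class in 1 fit, where each library was its own sample. Libraries of the same replicate are not independent, and this limits every result given with barcode class here and below. For Ly6Clo MHCIIhi over Ly6Clo MHCIIlo (0), 1 passed with no filter and with the replicate block (Ccr2, edgeR adjusted p = 0.0473). For Ly6Clo MHCIIhi over Ly6Chi MHCIIhi (1), 2 passed with DESeq2 or no filter, 0 with the replicate block (Ccr2 at -0.88, edgeR adjusted p = 0.153), 3 with ko alone, 0 with ctrl alone and 3 without thin libraries. For Ly6Clo MHCIIlo over Ly6Chi MHCIIlo (4), 1 passed with ctrl alone, and for Ly6Clo MHCIIhi over Ly6Chi MHCIIlo (4), 2. For Ly6Clo MHCIIlo over Ly6Chi MHCIIhi (1), 2 passed with no filter, 2 with ko alone, 0 with ctrl alone and 4 without thin libraries. No comparison had a correlation over 0.1 in every pair of samples with the same replicate number (-0.12 to 0.28). In Ly6Chi MHCIIhi over Ly6Chi MHCIIlo all 7 pairs were positive, at 0.078 to 0.25, with 4 over 0.1. Pairs of unlike number were not measured, so this cannot show whether populations came from the same animals. The block changed no other receptor's call.

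Signs of uncalled differences turned as follows. With ko alone Cxcr4 was 0.019 for Ly6Chi MHCIIhi over Ly6Chi MHCIIlo and Cx3cr1 -0.29 for Ly6Clo MHCIIhi over Ly6Clo MHCIIlo. With ctrl alone Cxcr4 was -0.17 in the second pair, and Ccr1 was 0.21 for Ly6Clo MHCIIhi and 0.11 for Ly6Clo MHCIIlo over Ly6Chi MHCIIhi. For ko over ctrl, barcode class in the fit gave Ccr2 0.085 in Ly6Chi MHCIIlo and 0.045 in Ly6Clo MHCIIhi and Cx3cr1 0.025 in Ly6Chi MHCIIhi. In every population but Ly6Clo MHCIIhi, barcode class and genotype coincide, so the barcode term is carried over from Ly6Clo MHCIIhi. Values with barcode class in those populations, here and in the gene counts below, cannot part genotype from barcode. In Ly6Chi MHCIIhi, Cx3cr1 was 0.13 without thin libraries. Ccr2 in Ly6Clo MHCIIhi was 0.095 with library 1 only and 0.078 with the number set also as covariate.

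Genes past the threshold moved too. For Ly6Chi MHCIIhi over Ly6Chi MHCIIlo (133) there were 244 with DESeq2, 303 with no filter, 304 in 1 fit, 342 with barcode class, 0 with ctrl alone and 66 with ko alone. For Ly6Clo MHCIIhi over Ly6Clo MHCIIlo (1199) there were 748 with the block, 593 with ko alone and 325 with ctrl alone. For Ly6Clo MHCIIhi over Ly6Chi MHCIIhi (860) there were 443 with the block and 56 with ctrl alone. For Ly6Clo MHCIIlo over Ly6Chi MHCIIlo (1498) there were 873 with ko alone and 766 with ctrl alone, for Ly6Clo MHCIIhi over Ly6Chi MHCIIlo (2278) 1508 and 1257, and for Ly6Clo MHCIIlo over Ly6Chi MHCIIhi (898) 31 with ctrl alone. For ko over ctrl the counts are given as higher and lower. In Ly6Chi MHCIIlo (0 and 3) they were 3 and 14 with DESeq2, 33 and 28 with no filter and 1 and 4 with the block, and 0 were lower with barcode class. In Ly6Chi MHCIIhi (0 and 0) they were 10 and 103 with no filter, 11 and 25 in 1 fit, 4 and 17 with barcode class, 0 and 4 without thin libraries and 0 and 10 with the block. In Ly6Clo MHCIIhi (0 and 0) they were 1 and 1 with DESeq2, 25 and 32 with no filter, and 0 and 2 in 1 fit, with barcode class and with the block. In Ly6Clo MHCIIlo (0 and 1) they were 12 and 12 with no filter, 5 and 4 with the block, and 0 were lower in 1 fit. For the interaction (4) there were 15 with DESeq2, 112 with no filter, 1 with all libraries, 7 with the block and 0 without thin libraries.

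Leaving out 1 replicate at a time gave 57 to 213 genes for Ly6Chi MHCIIhi over Ly6Chi MHCIIlo, and 0 to 86 for the interaction. For ko over ctrl it gave 0 to 1 higher and 0 to 7 lower in Ly6Chi MHCIIlo. In Ly6Chi MHCIIhi 0 to 4 genes were higher and 0 to 24 lower, and in Ly6Clo MHCIIlo 0 to 4 were higher and 0 to 2 lower. Receptors past the threshold ran over 0 to 1 for Ly6Clo MHCIIhi over Ly6Clo MHCIIlo and for the interaction, 1 to 2 for Ly6Clo MHCIIhi and 1 to 3 for Ly6Clo MHCIIlo over Ly6Chi MHCIIhi. Uncalled log2 differences that changed sign ran over -0.14 to 0.32 (Cx3cr1) and -0.20 to 0.0065 (Cxcr4) for Ly6Chi MHCIIhi over Ly6Chi MHCIIlo, and over -0.0099 to 0.28 (Cx3cr1) and -0.020 to 0.14 (Cxcr4) for Ly6Clo MHCIIhi over Ly6Clo MHCIIlo. For ko over ctrl they ran over -0.28 to 0.12 (Cxcr4 in Ly6Chi MHCIIlo), -0.88 to 0.39 (Cx3cr1) and -0.070 to 0.28 (Cxcr4) in Ly6Chi MHCIIhi, -0.19 to 0.069 (Ccr2 in Ly6Clo MHCIIhi) and -0.069 to 0.22 (Ccr1 in Ly6Clo MHCIIlo).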
